A study of Homo sapiens with 32 samples.

Results

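The genes described here are 8 receptors through which steroid hormones act on breast cells, or close relatives of such receptors: ESR1, ESR2, PGR, NR3C1, NR3C2, ESRRA, ESRRG and GPER1. They were chosen by name and matched by Ensembl identifier, and all 8 are among the 48804 genes counted in the 32 RNA-seq libraries of the series. The cells were MDA-MB-468, an established human line of triple-negative breast cancer (TNBC), a tumor class defined by the lack of estrogen receptor, progesterone receptor and HER2 amplification, which carries extra copies of the growth factor receptor gene EGFR. Cells received phosphate-buffered saline (control), 0.5 μM salinomycin (Sal), an ionophore antibiotic active against cancer stem cells, 15 μM dasatinib (Das), an inhibitor of Src family kinases, or both drugs at those doses (S + D), for 24 h or 72 h. Each of the 8 groups had 4 libraries, and 1 of the 4 carried no replicate number. The libraries hold bulk RNA of 1 cell line grown in serum-containing medium, and no group received a steroid hormone or a hormone antagonist.

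Steroid receptors are transcription factors that wait in the cytoplasm or nucleus and bind DNA at short repeated letters once their hormone arrives. The glucocorticoid and mineralocorticoid receptors, among others, wait bound to HSP90 chaperones. ESR1 and ESR2 encode estrogen receptors α and β, PGR the progesterone receptor (itself a classic estrogen target), NR3C1 the glucocorticoid receptor and NR3C2 the mineralocorticoid receptor. ESRRA and ESRRG encode estrogen-related receptors α and γ, which bind no estrogen and control genes of mitochondrial energy metabolism with the coactivators PGC-1α and PGC-1β, and GPER1 encodes a membrane receptor that signals upon estrogen binding.

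The total count per library was between 25692561 and 42769687, and 3 counts, taken here as the floor of detection, corresponded to 0.0705 to 0.113 CPM (counts scaled to a common library size, with TMM factors). The 4 unnumbered libraries of each time point deviated together from the means of their groups, with correlations across genes from 0.61 to 0.69 at 24 h and from 0.53 to 0.63 at 72 h, where genes are not independent replicates. They also stood apart in the receptors: the unnumbered library was the highest of its group for ESRRA in 8 of 8 groups, the lowest for NR3C2 in 8 of 8, the lowest for NR3C1 in 7 of 8 and the lowest for ESR1 in 6 of 8. Values from the 3 numbered libraries of each group are therefore given beside the results. The epithelial identity of the line was visible in every group, with means of 3590 to 5640 CPM for EGFR, 292 to 1200 CPM for KRT8 and 378 to 794 CPM for KRT18. Of 10 markers of other cell types, PTPRC of leukocytes had at most 5 counts in a library, CD3E and DCN at most 2 and COL1A2 at most 1. CD14 had group means of 2.47 to 27.7 CPM, COL1A1 of 25.3 to 87 CPM, and PDGFRB, ACTA2 and CDH5 stayed under 1.5 CPM. Luminal and basal markers were both present, among them FOXA1 with group means of 26.6 to 143 CPM, GATA3 with 35.8 to 87.4, KRT5 with 44 to 868 and FOXC1 with 81.6 to 141. TBX3 of the luminal list and SOX10 of the basal list had at most 1 count. At 72 h Das replicate 3 also differed from Das replicates 1 and 2 across all genes, at a chi-square per degree of freedom of 121 and 94.4 where those 2 differed by 4.69. Likewise, S + D replicate 1 at 72 h differed from S + D replicates 2 and 3 at 65 and 58.6, where those 2 differed by 2.43.

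The receptors spanned more than 3 orders of magnitude in level per length. Per kilobase of merged exon in the 72 h control group, ESRRA had 22.8 ± 3.99 CPM per kb (SD, n = 4), NR3C1 7.76 ± 0.768, NR3C2 1.47 ± 0.304 and ESR1 0.532 ± 0.0553, and the ranges of these 4 genes did not overlap. Below them, GPER1 had 0.0558 ± 0.0227 CPM per kb and ESRRG 0.0442 ± 0.0122, with overlapping ranges (0.0254 to 0.075 and 0.0337 to 0.0616). ESR2 had 0.00579 ± 0.00375 CPM per kb in that group, and PGR had no count. With Sal for 72 h, ESR2 reached 0.134 ± 0.0344 CPM per kb, above ESRRG (0.0181 ± 0.00827) and within the range of GPER1 in part (0.0113 to 0.122). ESR2 remained below ESR1 in every group in level per kb, since the lowest group mean of ESR1 was 0.395 CPM per kb.

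**Figure D1:**
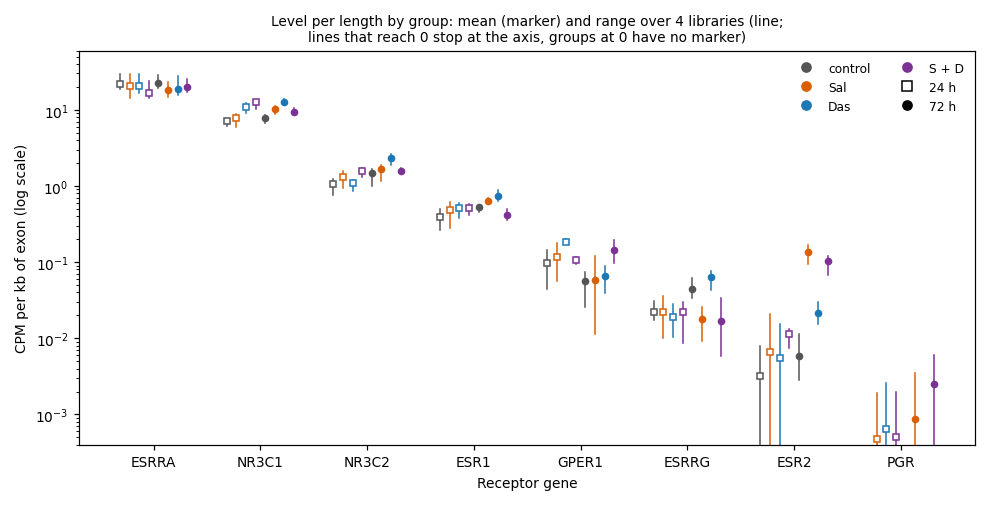
Level of the 8 receptor genes as CPM per kb of merged exon (log axis) in each group, as the mean (marker) and range (line) of 4 libraries. ESRRA and NR3C1 sit highest at every time, and ESR2 moves from 0.00579 CPM per kb in the 72 h control to 0.134 with Sal.

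Low counts limited which receptors could be tested. Of the 8, 6 passed the filter on low counts at 24 h and 7 at 72 h: PGR never passed, and ESR2, with 0 to 9 counts per library at 24 h, did not pass at that time. ESRRG and GPER1 passed with 2 to 34 and 1 to 24 counts per library. Against the control of the same time, with an adjusted p under 0.01 in edgeR's quasi-likelihood test as the call, no receptor was called with Sal at 24 h, where 4.55% of all genes tested were called higher and 2.23% lower; 0 had an unadjusted p under 0.05 and DESeq2 called 0. NR3C2 was called in the numbered libraries (log2 fold change 0.36, adjusted p = 0.00834). With Das at 24 h 1 receptor was higher and 0 were lower, beside 6.99% and 6.88% of all genes. With S + D at 24 h 1 was higher and 0 were lower, beside 17.1% and 16.5%. At 72 h, 2 of the 7 tested were higher and 0 lower with Sal, where 26.3% of all genes were higher and 26.8% lower. With Das 3 were higher and 0 lower, beside 10.5% and 9.36%, and with S + D 1 was higher and 1 lower, beside 27% and 27.9%. The median log2 fold change of the receptors tested at 72 h was 0.16 for Sal, 0.51 for Das and 0.09 for the drug combination, while the median of all genes was 0, 0.02 and 0.01.

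**Figure D2:**
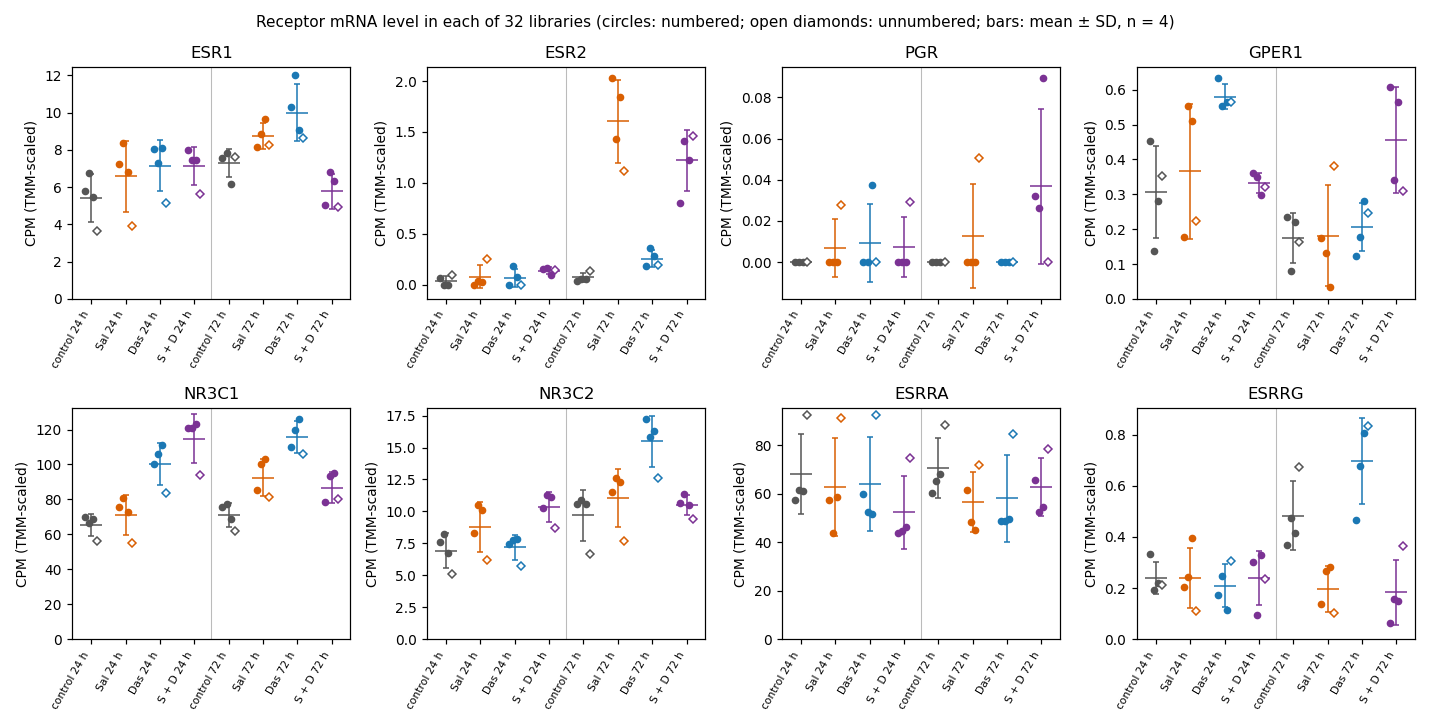
CPM of each receptor in every library, by group, with numbered libraries as circles, unnumbered ones as open diamonds and the mean ± SD (n = 4) as bars. ESR2 rises from at most 0.135 CPM in the 72 h controls to at least 1.12 CPM with Sal, and the open diamonds lie highest for ESRRA in all 8 groups.

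**Figure D3:**
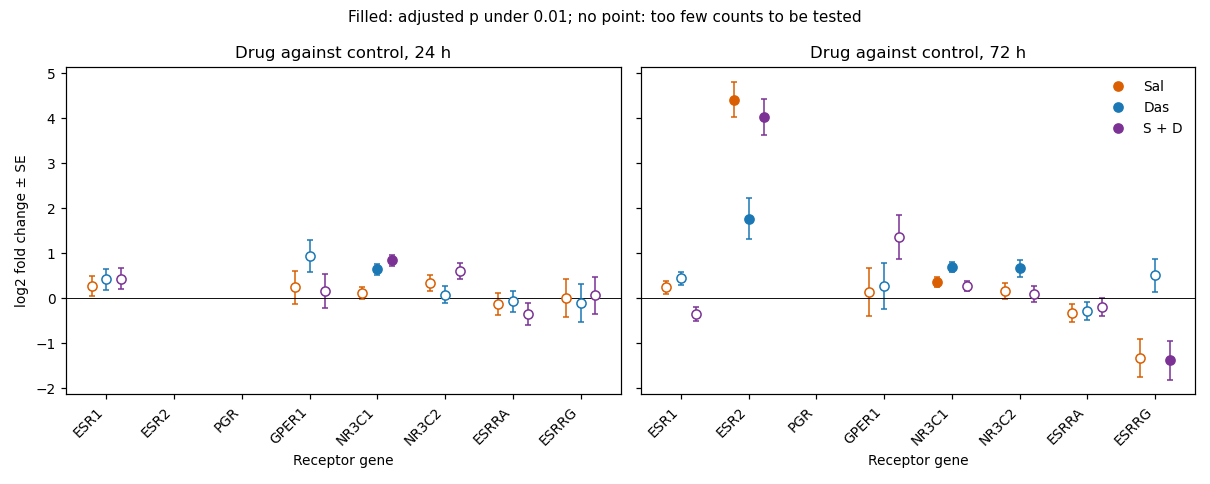
Log2 fold change against control, with its standard error, for the receptors tested at 24 h (left) and 72 h (right); filled points have an adjusted p under 0.01. At 72 h ESR2 stands at 4.41 under Sal, 1.77 under Das and 4.03 under the drug combination, and NR3C1 between 0.27 and 0.70.

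ESR2, whose induction the title of the series names, was close to silent in control cells and appeared at 72 h. In the 72 h controls it had 1, 2, 2 and 5 counts in replicates 1, 2, 3 and the unnumbered library, and with Sal it had 58, 43, 52 and 44. The 2 groups did not overlap, at 0.0335 to 0.135 against 1.12 to 2.03 CPM. The means were 0.0691 ± 0.0447 and 1.60 ± 0.411 CPM (SD, n = 4). The log2 fold change was 4.41 with a standard error (SE) of 0.39 and an adjusted p of 8.6e-08. As summed counts, 197 against 10 gave a ratio of 22 after scaling to library size, with an exact 95% interval from 11.7 to 46.5 that covers counting error only. The numbered libraries gave 5.07 (adjusted p = 4.42e-07), and leaving out each of the 8 libraries in turn gave 4.22 to 4.93 with adjusted p of 1.01e-07 to 1.25e-06.

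ESR2 also rose with S + D, with 25, 54, 41 and 52 counts and 1.22 ± 0.30 CPM (log2 fold change 4.03, SE 0.40, adjusted p = 1.76e-07) and a ratio of summed counts of 17.5 (exact 95% interval 9.27 to 37.1). With Das alone the counts were 6, 10, 9 and 8, all above the 1 to 5 of the controls, at 0.255 ± 0.0801 CPM (log2 fold change 1.77, SE 0.46, adjusted p = 0.00714), and the ratio was 3.49 (1.68 to 7.94). ESR2 passed the filter on low counts in a fit that also held the Sal and S + D libraries of 72 h. In a fit of the Das and control libraries alone it did not pass. With all 32 libraries in 1 fit the adjusted p with Das was 0.0476. The call of ESR2 with Das rested on few counts. It was absent without control replicates 1, 2 or 3 or Das replicates 2 or 3 (adjusted p of 0.0114 to 0.0258), and the adjusted p was 0.0112 with the replicate number as a block and 0.0041 in the numbered libraries, where the log2 fold change was 2.40.

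At 24 h ESR2 was near the floor in every group. The counts were 2, 0, 0 and 4 in the controls, 0, 1, 1 and 9 under Sal, 0, 6, 2 and 0 under Das, and 5, 5, 3 and 5 under the drug combination. The Sal group owed 9 of its 11 counts to the unnumbered library. S + D overlapped the controls, at 0.0898 to 0.16 against 0 to 0.094 CPM. The ratio of summed counts was 3.27 with S + D, with an exact 95% interval of 1.24 to 10.1, and 1.97 with Sal, with an interval of 0.669 to 6.5. These intervals cover counting error only and leave out the spread between libraries. An exact two-sided permutation test of CPM over the libraries gave p = 0.0571 with S + D and p = 0.714 with Sal.

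ESR2 (ENSG00000140009) lies on chromosome 14 from 64550950 to 64804830 of GRCh37, on the minus strand, and overlaps the gene body of SYNE2, which encodes a protein linking the nucleus to the cytoskeleton, on the opposite strand. The exons of the 2 genes share 0 bases in the annotation. SYNE2 moved the other way at 72 h, from 205 ± 15.3 CPM in controls to 92.9 ± 11.1 with Sal (log2 fold change -1.16, adjusted p = 0.00131) and 72.8 ± 31.8 with S + D (-1.51, adjusted p = 0.000127). As a share of SYNE2, ESR2 had 0.347 counts per 1000 SYNE2 counts in the 72 h controls, 17 under Sal, 1.29 under Das and 16.7 under the drug combination. A long non-coding RNA gene on the strand of ESR2, ENSG00000214770, shares 523 of its bases, or 4.38% of the exon bases of ESR2. Its counts were 5, 10, 5 and 10 in the 72 h controls and 34, 41, 26 and 38 with Sal (log2 fold change 2.35, adjusted p = 1.21e-05), and it had 18, 14, 23 and 21 counts with S + D (1.35, adjusted p = 0.00274). Whether the counting used strand is not given in the sources used here, so the part of reads from introns or from the overlapping RNA in the ESR2 count was not tested.

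**Figure D4:**
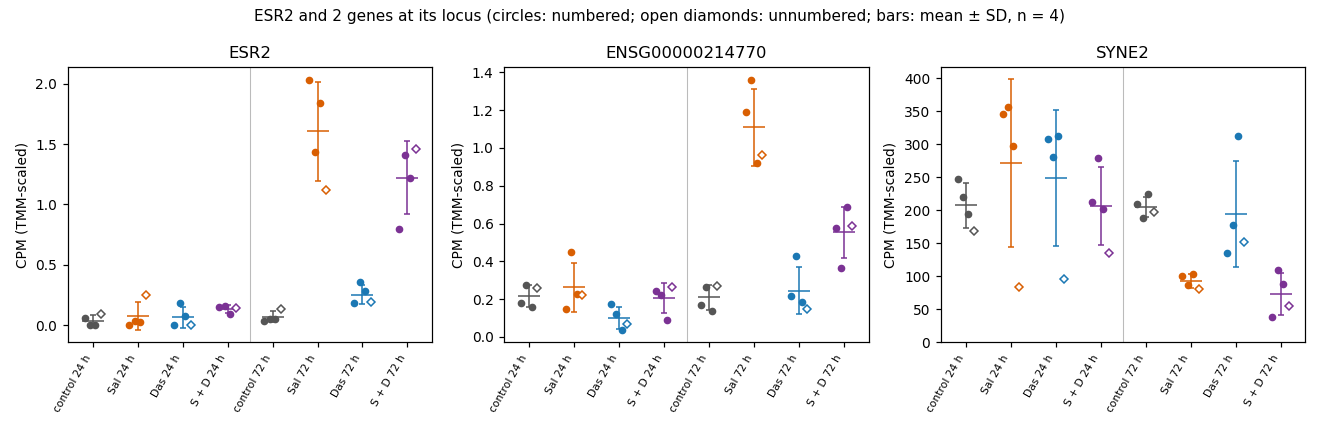
CPM by library of ESR2, of the long non-coding RNA gene ENSG00000214770 that shares exon bases with it, and of SYNE2 on the opposite strand, with the mean ± SD (n = 4). At 72 h with Sal the first 2 genes rise and SYNE2 falls from 205 to 92.9 CPM.

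ESR2 has 5 starts in the RefSeq promoter table (build GRCh38.p14). The 250 bases before a start are shown for the start farthest upstream and for 1 farther downstream, because ESR2 had the largest change of the 8 and gene counts do not tell its starts apart. Capitals mark the half-site GGTCA, on either strand, which estrogen and estrogen-related receptors recognize.
ESR2 upstream start, minus strand of chr14:64338614-64338863: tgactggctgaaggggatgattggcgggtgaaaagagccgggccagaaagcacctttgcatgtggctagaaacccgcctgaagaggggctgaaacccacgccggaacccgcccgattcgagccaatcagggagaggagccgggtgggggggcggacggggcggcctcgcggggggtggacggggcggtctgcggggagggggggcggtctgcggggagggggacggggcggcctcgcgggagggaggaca
ESR2 downstream start, minus strand of chr14:64294411-64294660: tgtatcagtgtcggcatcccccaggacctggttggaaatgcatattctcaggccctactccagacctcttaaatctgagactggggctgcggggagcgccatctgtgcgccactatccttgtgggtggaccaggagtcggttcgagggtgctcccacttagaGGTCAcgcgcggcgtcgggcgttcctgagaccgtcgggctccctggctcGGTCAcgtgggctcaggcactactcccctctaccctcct
The upstream window held 0 half-sites. The downstream window was chosen as the first below it that holds the half-site, so its 2 matches follow from that choice. Of all 35116 windows of this length, 32.6% held the half-site, and 11 of the 36 windows of the 8 receptors did (30.6%): 1 of 6 for ESR1, 2 of 5 for ESR2, 2 of 3 for PGR, 0 of 7 for NR3C1, 1 of 4 for NR3C2, 0 of 1 for ESRRA, 5 of 8 for ESRRG and 0 of 2 for GPER1. The palindromic estrogen response element GGTCANNNTGACC was in 0.0399% of all windows, the glucocorticoid response element GNACANNNTGTNC in 0.327% and the extended half-site TNAAGGTCA, which contains the half-site, in 0.854%, and none of the 3 was in a window of the 8 receptors.

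ESR1 (ENSG00000091831, chromosome 6 from 151977826 to 152450754 of GRCh37) was transcribed at a low but well-counted level, with 139 to 353 counts per library. At 72 h the controls had 7.56, 7.83, 6.17 and 7.62 CPM, and Sal gave 8.16, 8.83, 9.67 and 8.25, Das 10.3, 12, 9.04 and 8.64, and S + D 5.06, 6.83, 6.32 and 4.91. Both single-drug groups thus lay wholly above the controls and above S + D. None of the differences from control passed the test: the log2 fold change was 0.24 for Sal (SE 0.15, adjusted p = 0.169), 0.44 for Das (SE 0.15, adjusted p = 0.0301) and -0.35 for S + D (SE 0.15, adjusted p = 0.0497). At 24 h the changes were 0.27, 0.42 and 0.43, none of them called, and the calls with Das and S + D appeared in the numbered libraries (adjusted p = 0.00356 and 0.00567) and with the replicate number as a block (0.00831 and 0.00341).

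ESR1 differed between the drug combination and Das. At 72 h S + D was lower than Das alone (log2 change -0.79, SE 0.15, adjusted p = 0.000422), and this held in all 8 fits that left out 1 library (adjusted p of 0.000462 to 0.00285). Compared with the sum of the 2 single-drug changes, the S + D change was -1.04 (SE 0.21, adjusted p = 0.00355), that is, below the sum. The deviation was no longer called in 3 of 16 such fits, at an adjusted p of 0.0106 without control replicate 3, 0.0103 without Sal replicate 3 and 0.0109 without Das replicate 2.

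PGR was at the limit of detection. It had 10 counts in total over 32 libraries, 0 in 25 of them and at most 3 in any, so no change was detectable at this depth. Its counts were 1, 1, 3 and 0 with S + D at 72 h, 2 in the unnumbered Sal library of 72 h, and 1 each in single Sal, Das and S + D libraries of 24 h, while all 8 controls and all 4 Das libraries of 72 h had 0.

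GPER1, the membrane estrogen receptor, had 1 to 24 counts per library. With Das at 24 h it had 22, 18, 15 and 24 counts against 15, 5, 9 and 15 in the controls. In CPM the groups did not overlap (0.554 to 0.634 against 0.137 to 0.454; exact two-sided permutation p = 0.0286, the smallest that 4 against 4 can give), but the log2 fold change, 0.94 with an SE of 0.36, had an adjusted p of 0.0694. With S + D at 72 h it had 19, 13, 19 and 11 counts against 7, 3, 8 and 6, again without overlap in CPM (0.309 to 0.608 against 0.0793 to 0.234; log2 fold change 1.36, SE 0.48, adjusted p = 0.0182). Neither difference was called, and the values with Das alone at 72 h, 0.124 to 0.28 CPM, and with Sal, 0.0354 to 0.381 CPM, overlapped the controls. GPER1 lies inside the gene body of C7orf50 on the opposite strand with 0 shared exon bases, and C7orf50 was at 77 to 114 CPM in its group means and was not called against control in any group.

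The glucocorticoid receptor NR3C1 (ENSG00000113580, chromosome 5 from 142657496 to 142815077 of GRCh37) rose with Das at both times, and it was the receptor called in the most comparisons. In the 24 h controls it had 69.9, 66.3, 68.7 and 56.3 CPM. Das at 24 h gave 100, 106, 111 and 83.7 CPM, and S + D 121, 121, 123 and 93.8 CPM, both wholly above the controls. The log2 fold change was 0.64 with Das (SE 0.13, adjusted p = 0.00245) and 0.84 with S + D (SE 0.13, adjusted p = 9.41e-05), and 0.66 and 0.84 from the numbered libraries. The call with Das was lost without Das replicate 3 (adjusted p = 0.0102). With Sal alone at 24 h the change was 0.11 (SE 0.13, adjusted p = 0.641).

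At 72 h NR3C1 was at 75.6, 77.6, 68.9 and 62.1 CPM in the controls and at 110, 120, 126 and 106 with Das (log2 fold change 0.70, SE 0.11, adjusted p = 0.000222), a difference that was called without any 1 of the 8 libraries. With Sal it was at 85.2, 100, 103 and 81.4 CPM (log2 fold change 0.36, SE 0.11, adjusted p = 0.00972), just past the threshold. That call was absent in the numbered libraries (0.35, adjusted p = 0.0119) and without control replicate 1 or 3, the unnumbered control, or Sal replicates 1, 2 or 3 (adjusted p of 0.0109 to 0.0403). With S + D it was at 78.5, 93.5, 95.1 and 80 CPM, above all controls but not called (0.27, SE 0.11, adjusted p = 0.0432). It was called with the replicate number as a block, in which the unnumbered libraries are a block of their own (adjusted p = 0.00842). S + D was thus below Das alone, by a log2 change of -0.42 (SE 0.11, adjusted p = 0.00548), and below the sum of the single-drug changes, at -0.79 (SE 0.16, adjusted p = 0.00336). The first of these was absent without Das replicates 1, 2 or 3, S + D replicate 1 or the unnumbered S + D library (adjusted p of 0.0136 to 0.0307), and the second without Sal replicate 2 or Das replicate 2 (0.0103 and 0.0104).

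NR3C1 has 7 windows in the promoter table, none with the half-site. The window farthest upstream is shown, as the gene was called in 4 of the 6 comparisons with control.
NR3C1 upstream start, minus strand of chr5:143435513-143435762: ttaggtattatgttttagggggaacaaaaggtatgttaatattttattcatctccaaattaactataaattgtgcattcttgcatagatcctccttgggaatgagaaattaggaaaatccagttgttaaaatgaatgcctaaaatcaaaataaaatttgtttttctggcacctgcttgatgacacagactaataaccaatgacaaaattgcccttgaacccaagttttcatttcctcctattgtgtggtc

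The mineralocorticoid receptor NR3C2 (ENSG00000151623), which binds aldosterone and, where not protected by an enzyme, cortisol, rose with Das at 72 h. The controls had 10.6, 10.9, 10.6 and 6.7 CPM and Das 17.2, 15.8, 16.3 and 12.6, without overlap (log2 fold change 0.66, SE 0.18, adjusted p = 0.00845). The numbered libraries gave 0.61 with an adjusted p of 0.000934. With all libraries but 1, the call was absent in 7 of 8 fits, that is, without any 1 of the 4 controls or without Das replicate 1, 2 or 3 (adjusted p of 0.0128 to 0.0298). Sal and S + D gave 0.16 and 0.09 at 72 h. At 24 h S + D had 10.3, 11.3, 11.1 and 8.73 CPM against 7.62, 8.23, 6.77 and 5.08 in the controls. The log2 fold change was 0.61 with an adjusted p of 0.0121, not called. Only 3 of 7 alternatives called this rise: the numbered libraries (adjusted p = 9.1e-05), the replicate number as a block (4.79e-05) and DESeq2 (0.00607). The adjusted p reached 0.0215 among the alternatives. Of the 8 fits that left out 1 library, 1 called the rise, without the unnumbered S + D library (adjusted p = 0.00856). Among those fits the adjusted p reached 0.0458, without the unnumbered control. At 72 h S + D lay wholly below Das (9.43 to 11.4 against 12.6 to 17.2 CPM; log2 change -0.57, SE 0.18, adjusted p = 0.0144), and this difference had an adjusted p of 0.000415 in the numbered libraries and 0.000707 with the block.

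ESRRA (ENSG00000173153), the most abundant of the 8 per length, was not called in any comparison over all libraries without the block. Its group means ran from 52.3 ± 14.9 CPM with S + D at 24 h to 70.6 ± 12.4 CPM in the 72 h controls (SD, n = 4). The unnumbered libraries had 71.7 to 92.6 CPM where the numbered ones had 43.7 to 68.3. Within the numbered libraries ESRRA was lower with S + D at 24 h, at 44.8 ± 1.22 against 60 ± 2.25 CPM (SD, n = 3; log2 fold change -0.41) with an adjusted p of 0.000569. The corresponding change over all 16 libraries was -0.35 with an adjusted p of 0.263, and 0.00109 with the replicate number as a block. With Sal at 72 h the change was -0.33 with an adjusted p of 0.155, and 0.00941 with the block. ESRRA shares 284 of its exon bases (9.16%) with TRMT112 on the opposite strand, and TRMT112 rose at 72 h by 0.90 with Sal (adjusted p = 2.64e-05) and 1.11 with S + D (adjusted p = 2.53e-06). The pseudogenes ESRRAP1 and ESRRAP2 had at most 3 counts in a library.

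ESRRG (ENSG00000196482) had 2 to 34 counts per library and fell with S + D at 72 h. It had 11, 18, 15 and 25 counts in the 72 h controls, 4, 8, 8 and 4 under Sal, 15, 19, 26 and 34 under Das, and 2, 6, 5 and 13 under the drug combination. Both groups with Sal lay below all controls in CPM, at 0.102 to 0.283 and 0.064 to 0.365 against 0.368 to 0.673. The log2 fold change was -1.38 with S + D (SE 0.43, adjusted p = 0.00881) and -1.33 with Sal (SE 0.43, adjusted p = 0.0125, not called). The call with S + D was absent without control replicates 2 or 3, the unnumbered control, or S + D replicates 1, 2 or 3 (adjusted p of 0.0133 to 0.0334) and stood at 0.00238 in the numbered libraries, whereas the value with Sal moved to -0.89 there (adjusted p = 0.0602) and had an adjusted p of 0.00637 with the replicate number as a block. S + D was lower than Das alone by a log2 change of -1.90 (SE 0.42, adjusted p = 0.00139), in all 8 fits that left out 1 library. With Das the change from control was 0.51 (SE 0.37, adjusted p = 0.307). At 24 h the ESRRG changes were 0.00, -0.11 and 0.06 for Sal, Das and S + D.

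The combination was also compared with each drug and with their sum over all receptors. At 24 h, S + D differed from Sal alone in 1 of 6 receptors, NR3C1, where the log2 change was 0.73 (SE 0.13, adjusted p = 0.000962), beside 12.9% of all genes. In a fit of these 2 groups alone the adjusted p was 0.0125. S + D differed from Das in 0 of 6 receptors, beside 8.49% of all genes; 2 (NR3C2 and GPER1) had an unadjusted p under 0.05 and DESeq2 called 0. In the numbered libraries that comparison called NR3C1, NR3C2 and ESRRA (adjusted p = 0.00742, 0.000678 and 0.00956), beside 5351 of 16257 genes. With the block it called NR3C2 (0.000683), beside 3595 of 16357 genes. Of the deviations from the sum at 24 h, 0 of 6 were called by edgeR, 0 had an unadjusted p under 0.05 and DESeq2 called 0, beside 0.0306% of all genes. At 72 h, S + D differed from Das in 4 of 7 receptors (ESR1, NR3C1 and ESRRG lower, ESR2 higher), beside 32.1% of all genes, and from Sal in 0 of 7, beside 3.01%. Against Sal, 2 receptors (ESR1 and GPER1) had an unadjusted p under 0.05, and DESeq2 called ESR1, whose log2 change was -0.59 (SE 0.15, adjusted p = 0.0213 in edgeR, 0.00734 with the block and 0.00294 in DESeq2). ESR2 rose by a log2 change of 2.26 over Das (SE 0.33, adjusted p = 4.22e-05) and stood at -0.38 (SE 0.28, adjusted p = 0.47) relative to Sal. From the sum, 2 of 7 deviated (ESR1 and NR3C1, both below it), beside 7.52% of all genes. ESR2 was at -2.15 relative to the sum (SE 0.54, adjusted p = 0.0115), and at -3.01 with an adjusted p of 0.00342 in the numbered libraries. That deviation was also called without the unnumbered library of the controls (-2.66, adjusted p = 0.00653), of Sal (-2.29, adjusted p = 0.00608) or of Das (-2.27, adjusted p = 0.00984), and by DESeq2 (adjusted p = 0.00816). In all, it was called in only 3 of 16 fits that left out 1 library and in 2 of 6 other alternatives. The adjusted p was 0.0118 with the block, 0.0607 with all 32 libraries in 1 fit and 0.0319 without Das replicate 2. NR3C2 was at -0.73 relative to the sum (SE 0.25, adjusted p = 0.0509), and was called in the numbered libraries (0.00341) and with the block (0.00422). These comparisons share libraries, so their results are not independent of one another.

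Time in culture and the time course of the responses were tested in a fit of all 32 libraries. Between the 72 h and the 24 h controls 0 of 7 receptors differed by edgeR, beside 2.76% of all genes; 3 (ESR1, NR3C2 and ESRRG) had an unadjusted p under 0.05 and DESeq2 called 0. ESRRG had 11, 18, 15 and 25 counts at 72 h against 11, 7, 7 and 9 at 24 h (log2 change 1.02, SE 0.40, adjusted p = 0.127), and NR3C2 changed by 0.49 (SE 0.18, adjusted p = 0.102), with an adjusted p of 0.000809 in the numbered libraries and 0.00102 with the block. The response to Sal differed between times in 0 of 7 receptors, beside 21.9% of all genes; 2 (ESR2 and ESRRG) had an unadjusted p under 0.05 and DESeq2 called 1. For ESR2 the difference was 3.51 (SE 1.27, adjusted p = 0.0329 in edgeR and 0.00317 in DESeq2). Without the unnumbered Sal library of 24 h, which held 9 counts, it was 5.32 (adjusted p = 0.002). It was 2.56 (adjusted p = 0.31) without the unnumbered control of 24 h, which held 4 of the 6 control counts. The response to Das differed in 0 of 7, beside 0.226% of all genes, with 1 unadjusted p under 0.05 (NR3C2, adjusted p = 0.244, and 0.00778 with the block) and 0 called by DESeq2. The response to S + D differed in 0 of 7, beside 16.3% of all genes, with 4 unadjusted p under 0.05 (ESR1, NR3C1, ESRRG and GPER1) and 0 called by DESeq2. For NR3C1 that difference was -0.52 (SE 0.17, adjusted p = 0.0219), -0.63 without the unnumbered S + D library of 24 h (adjusted p = 0.00638), and -0.57 in the numbered libraries (adjusted p = 0.000481). The block called ESR1 (0.00396), NR3C1 (0.000264) and NR3C2 (0.00877), and the numbered libraries NR3C2 (0.00393). Of all genes, the block called 5013 of 17227 and the numbered libraries 5372 of 17043.

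Across the 32 libraries the genes whose log2 CPM was most like that of a receptor, of 17227 genes, were ATP2C1 (Pearson r = 0.939), UGGT2 (0.938) and ESYT3 (0.936) for ESR2, NBEA (0.94), TACC2 (0.931) and ZNF391 (0.929) for NR3C1, MPP7 (0.909), CAMK2D (0.904) and MFAP3L (0.89) for NR3C2 and RHOBTB3 (0.85), TAOK3 (0.844) and IMPACT (0.828) for ESR1. For ESRRA they were BOLA1 (0.969), CD81 (0.957) and OXLD1 (0.957), for ESRRG TLR5 (0.789), ZNF702P (0.768) and ABCC6P1 (0.764), and for GPER1 PGLS-DT (0.665), ZSCAN25 (0.662) and PROC (0.657). The points share treatment, library and depth. Among the receptors themselves r was 0.68 for ESR1 with NR3C1, 0.71 for ESR1 with NR3C2 and 0.65 for NR3C1 with NR3C2, and ESRRA ran opposite to all 3 (-0.64, -0.67 and -0.62). The unnumbered library was the highest of its group for ESRRA in 8 of 8 groups. It was the lowest for NR3C2 in 8, for NR3C1 in 7 and for ESR1 in 6. Correlations without the unnumbered libraries were not computed, so their part in these values was not tested.

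The gene lists are described by counts and medians, with no test of a list against other genes. Of all genes tested at 72 h, Sal raised 26.3% and lowered 26.8%, Das 10.5% and 9.36%, and S + D 27% and 27.9%. Genes known to respond to estrogen moved in both directions. Of 18 listed genes 15 were tested at 72 h. Sal raised 3 of them and lowered 9, Das 5 and 5, and S + D 5 and 8, and the medians were -0.82, -0.15 and -0.93 on the log2 scale beside 0, 0.02 and 0.01 for all genes. TFF1, a secreted trefoil peptide and a standard marker of estrogen receptor activity, had 0 counts in each of the 72 h controls and 28, 17, 33 and 143 with Das, at least 17.5-fold higher against a floor of 3 counts per library. The unnumbered Das library held the 143, and without the unnumbered libraries the bound was 9.51-fold. With S + D TFF1 had 11, 7, 7 and 7 counts, at least 2.73-fold higher, and with Sal 0, 1, 0 and 4. GREB1, a cofactor of estrogen receptor α, rose by 1.15 with Sal (SE 0.27, adjusted p = 0.00113) and 1.75 with S + D (SE 0.26, adjusted p = 1.71e-05), and was at -0.11 with Das (adjusted p = 0.792). STC2, a secreted glycoprotein hormone, rose by 1.65, 0.89 and 1.89 with Sal, Das and S + D, and SLC7A5, an amino acid transporter, by 1.56 with Das and 1.32 with S + D. CCND1, which encodes cyclin D1, fell from 282 ± 6.32 CPM to 49.2 ± 3.26, 64.5 ± 22.9 and 17.9 ± 2.31 CPM. MYB, a transcription factor, was at -4.86 with Sal and -5.44 with S + D, and EGR3, a transcription factor of the immediate early class, was at -2.96, -5.20 and -6.41 with Sal, Das and S + D. IGFBP4, which binds insulin-like growth factors, was at -3.32, -0.87 and -2.71, all called. PDZK1, a scaffold protein induced by estrogen, was not called (-1.04, -1.43 and -1.33).

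Genes known to respond to glucocorticoids also moved in both directions. Of 15 listed glucocorticoid response genes 14 were tested, and Sal raised 3 and lowered 7 at 72 h, Das 2 and 6, and S + D 2 and 6 (medians -0.81, -0.58 and -0.60). The shares of all genes raised and lowered were 26.3% and 26.8% (Sal), 10.5% and 9.36% (Das) and 27% and 27.9% (S + D). FKBP5, a cochaperone that restrains the glucocorticoid receptor and is induced by it, fell from 129 ± 21.2 CPM to 40.6 ± 1.28 under Sal, 70.4 ± 36.3 under Das and 29.0 ± 4.03 under the drug combination (log2 fold changes -1.69, -0.88 and -2.17, SEs 0.24, 0.24 and 0.25). Das replicate 3 had 123 CPM of FKBP5, within the control range of 98.6 to 146, and the other 3 Das libraries had 42 to 61. TSC22D3, which encodes the glucocorticoid-induced leucine zipper, fell with Sal (-0.95, SE 0.18) and S + D (-0.78, SE 0.17), rose with Das at 24 h (0.61, SE 0.12), and was at 0.62 with Das at 72 h (adjusted p = 0.0116). PER1, a clock gene, rose with Sal at 72 h (1.97, SE 0.20), and KLF9, a transcription factor, was at 0.16, 0.06 and 0.03. DUSP1, a phosphatase of MAP kinases, rose by 3.05, 1.27 and 2.72, and PDK4, a kinase that limits glucose oxidation, by 1.41, 2.33 and 2.82. SGK1, a kinase that both corticosteroid receptors induce, was at -2.47, -1.93 and -2.70, ERRFI1, an inhibitor of EGFR, at -1.72, -1.57 and -2.45, and NFKBIA, the inhibitor of NF-κB, at -1.76, -1.05 and -1.0, all of them called lower.

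**Figure D5:**
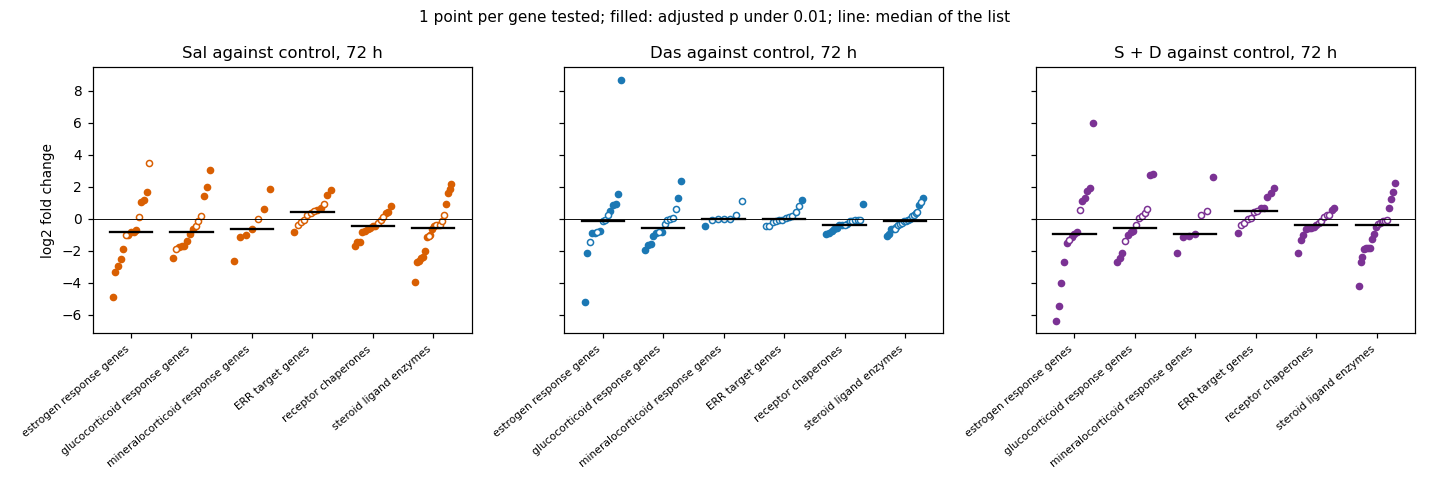
Log2 fold change at 72 h of every tested gene of 6 lists, with filled points for an adjusted p under 0.01 and a line at the median of the list, for Sal, Das and S + D. The estrogen response genes spread furthest, and the highest points with Das and S + D are TFF1, whose fitted value against controls with 0 counts depends on the prior count.

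Of 9 mineralocorticoid response genes 7 were tested. Sal raised 2 and lowered 4 at 72 h, Das 0 and 1, and S + D 1 and 4, with medians of -0.65, -0.03 and -0.93, beside medians of 0, 0.02 and 0.01 over all genes. SCNN1B, a subunit of the epithelial sodium channel, fell with Sal (-2.61, SE 0.28) and S + D (-2.15, SE 0.27) and was at -0.04 with Das. WNK4, a kinase that controls salt transport, rose with Sal (1.86, SE 0.40) and S + D (2.60, SE 0.41). Of 13 target genes of the estrogen-related receptors 12 were tested, and Sal raised 4 and lowered 1 at 72 h, Das 1 and 0, and S + D 5 and 1 (medians 0.40, 0.00 and 0.46). Of all genes, Sal raised 26.3% and lowered 26.8%, Das 10.5% and 9.36%, and S + D 27% and 27.9%. The count of ERR targets called higher was near the background with Sal and Das. CYCS, which encodes cytochrome c, rose from 147 ± 18.5 to 422 ± 45.9 CPM with Sal and 458 ± 78.9 with S + D, and PERM1, a muscle regulator of these receptors, rose by 1.82, 1.17 and 1.92 with Sal, Das and S + D from 0.371 ± 0.19 CPM.

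Transcripts of the chaperones that hold steroid receptors ready for hormone had more calls lower than higher in each drug group. Of 15 chaperones and cochaperones, all tested, Sal raised 3 and lowered 9 at 72 h, Das 1 and 8, and S + D 2 and 8, with medians of -0.48, -0.38 and -0.39, beside 26.8%, 9.36% and 27.9% of all genes lower. At 24 h Sal had raised 0 and lowered 5, Das 1 and 6, and S + D 1 and 9, beside 2.23%, 6.88% and 16.5% of all genes lower. Of 24 coactivators and corepressors 22 were tested, and 16 under Sal, 20 under Das and 15 under S + D were not called at 72 h, where 46.8%, 80.1% and 45.1% of all genes were not called. CARM1, an arginine methyltransferase and coactivator, fell from 97.5 ± 9.58 CPM to 15.7 ± 2.85 under Sal, 50.3 ± 21.5 under Das and 24.0 ± 1.95 under the drug combination. NRIP1, a corepressor that estrogen induces, fell with Sal (-0.68) and S + D (-1.54), and SAFB2, a corepressor of estrogen receptor α, rose with Sal (1.54) and S + D (1.44).

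Of 27 genes for enzymes that make or inactivate steroid ligands 20 were tested, and Sal raised 4 and lowered 11 at 72 h, Das 2 and 5, and S + D 4 and 10, with medians of -0.55, -0.13 and -0.41. The shares of all genes raised and lowered were 26.3% and 26.8% (Sal), 10.5% and 9.36% (Das) and 27% and 27.9% (S + D). HSD17B2, which converts estradiol to the weaker estrone, fell from 63.3 ± 10.9 CPM to 4.05 ± 0.72 under Sal, 32.3 ± 11.1 under Das and 3.48 ± 0.882 under the drug combination (log2 fold changes -3.98, -0.97 and -4.20). HSD11B2, which inactivates cortisol and thereby shields the mineralocorticoid receptor, fell from 10.1 ± 1.22 CPM to 1.55 ± 0.545 with Sal and 1.91 ± 0.384 with S + D, and was at 8.09 ± 2.68 with Das. SULT2B1, a sulfotransferase of sterols, was at -2.02, -1.10 and -2.69, all called. AKR1C2 was at -2.64 with Sal and -1.80 with S + D, with a near-identical paralog in AKR1C1 that makes its count uncertain. HSD17B14 rose by 2.15 and 2.21 with Sal and S + D, HSD17B8 by 1.63 and 1.66, and SULT1E1, the estrogen sulfotransferase, by 1.84 with Sal.

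Among 40 other nuclear receptors, 28 were tested at 72 h, and Sal raised 11 and lowered 4, Das 5 and 5, and S + D 12 and 9, with medians of 0.24, 0.01 and 0.16. The medians over all genes were 0, 0.02 and 0.01, and Sal raised 26.3% and lowered 26.8% of all genes, Das 10.5% and 9.36%, and S + D 27% and 27.9%. NR4A3, an orphan receptor of the immediate early class, rose from 0.361 ± 0.159 CPM to 13.3 ± 3.54, 9.55 ± 3.41 and 9.51 ± 1.52 CPM with Sal, Das and S + D. NR5A2, also called LRH-1, rose from 0.0136 ± 0.0157 CPM to 0.902 ± 0.555, 0.21 ± 0.164 and 2.17 ± 0.589, and RARB, a retinoic acid receptor, from 2.06 ± 0.348 to 18.4 ± 3.81, 7.70 ± 3.00 and 18.1 ± 3.46 CPM. VDR, the vitamin D receptor, was at -1.16, -1.44 and -1.72 and RARG at -1.07, -0.68 and -1.54, all called, and NR2F1 fell with Das (-1.55) and S + D (-1.66). 

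Of 12 luminal markers 11 were tested, and at 72 h Sal lowered 9 and raised 0, Das 3 and 1, and S + D 10 and 1. Their medians were -1.02, -0.25 and -1.31. Of all genes, Sal lowered 26.8% and raised 26.3%, Das 9.36% and 10.5%, and S + D 27.9% and 27%. FOXA1, the pioneer factor of estrogen receptor α, fell from 135 ± 14.8 CPM to 39.3 ± 4.81 with Sal and 26.6 ± 1.42 with S + D, and was at 143 ± 50.9 with Das. SPDEF was at -1.88 and -2.48 with Sal and S + D, AGR2 at -1.89, -1.26 and -3.43 with Sal, Das and S + D, and KRT19 at -1.62, -1.01 and -2.30, all called. Of 12 basal markers 11 were tested, and Sal lowered 7 and raised 0, Das 8 and 0, and S + D 8 and 1, beside the same shares of all genes. The medians of the basal markers were -1.53, -1.55 and -1.89. KRT5 fell from 531 ± 31.9 CPM to 44 ± 24.8, 106 ± 35.9 and 103 ± 6.11 CPM, KRT14 was at -5.42, -3.50 and -5.84, KRT6A and KRT6B, near-identical paralogs with uncertain counts, at -4.73 and -5.65 with Sal, and KRT17 rose by 1.87 with S + D. Of 10 markers of other cell types 5 were tested; CD14 fell from 27.7 ± 3.38 CPM to 9.31 ± 5.73, 3.51 ± 0.908 and 4.73 ± 0.769, COL1A1 rose with Sal (1.22) and S + D (1.62), PDGFRB rose with S + D (2.41), and ACTA2 (-3.63) and CDH5 (-3.01) fell with Sal. In bulk RNA, fewer cells with a transcript and less of it per cell cannot be told apart, and the part of these shifts in the receptor changes was not tested.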

How the data were processed

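RNA of MDA-MB-468 cells was sequenced as single-end reads. The study states 4 biological replicates per condition, from independent experiments, and the labels leave 1 library per condition without a replicate number. The deposited values are raw counts of reads per Ensembl gene, not normalized by the authors. The submitters' processing notes name bcl2fastq 2.19, STAR 2.5.2, Cufflinks 2.1.1, DESeq2 and the build GRCh37. The counter, its annotation and its use of strand are not given in the sources used here.

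Counts were fitted with edgeR 4.0.16 in R 4.3.3 (TMM factors, filterByExpr with a minimum count of 10, quasi-likelihood test, Benjamini-Hochberg adjustment over all genes tested), the 16 libraries of a time point in 1 fit and all 32 for comparisons of time. A call was an adjusted p under 0.01. The script was tested on simulated data. Levels are CPM with TMM factors of all 32 libraries, and genes are compared per kb of merged GENCODE exons. A symbol was found for 46537 of 48804 identifiers. All pairs of replicates differed beyond sampling noise. Alternatives were DESeq2 and its size factors, no filter, other thresholds, a replicate block, the numbered libraries, the compared groups alone, and each library left out.

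The receptors and gene lists were chosen with earlier results of these data known. Named were the 8 receptors, genes that overlap them, the 3 genes most like each, FKBP5, TSC22D3, PER1, KLF9, TFF1, GREB1 and PDZK1, and of each list the called genes with an absolute log2 fold change above 1.5 at 72 h, at most 4 per direction. Markers named for cell identity, and CDH5, were chosen after their values were seen where they fell outside that rule. NCOA4, NR2E3 and PECAM1 had no unique match and were not analysed here. A gene that the naming rule selects among the other nuclear receptors is not reported here.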

Additional observations from a re-analysis of the deposited data

Results flagged for a closer look

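Of the 64 combinations of receptor and group, 12 had 1 library far from the other 3 by Dixon's criterion. Of these, 4 were PGR groups with 1 or 2 counts in 1 library and 0 in the others, which meet the criterion by construction. Without PGR, 8 of 56 groups stood out, where chance gives about 1 in 20, and in 6 of the 8 the library that stood apart was the unnumbered one. For ESRRA it was the unnumbered library in the 24 h controls (92.6 CPM, the others 57.4 to 61.5), with S + D at 24 h (74.6, the others 43.8 to 46.2) and with Das at 72 h (84.8, the others 48.9 to 49.6). It was also the unnumbered library for NR3C1 with S + D at 24 h (93.8 CPM, the others 121 to 123), NR3C2 in the 72 h controls (6.7, the others 10.6 to 10.9) and ESR2 with Sal at 24 h (0.252, the others 0 to 0.0347). PGR stood apart through 1 or 2 counts where the other 3 libraries had 0, in the unnumbered libraries of Sal at 24 h (0.028 CPM), S + D at 24 h (0.0293) and Sal at 72 h (0.0508), and in Das replicate 3 at 24 h (0.0377). The other cases were ESR1 in control replicate 3 at 72 h (6.17 CPM, the others 7.56 to 7.83) and GPER1 in Das replicate 1 at 24 h (0.634, the others 0.554 to 0.566).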

How the results depend on the processing

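No log2 fold change of a receptor reversed its direction past the threshold under any alternative. The number of receptors called stayed within 1.5 times in 97 cases and moved in 37 under alternatives other than leaving out a library. With the numbered libraries alone at 24 h it was 1 for Sal against control (3828 of 16257 genes called), 2 for Das (6382) and 4 for S + D (9442). It was also 3 for S + D against Das at 24 h (5351). At 72 h it was 1 for Sal against control (9476 of 16527 genes) and 4 against the sum (2125). It was 1 between the controls (1880 of 17043 genes) and 2 for the change of the S + D response with time (5372). With an adjusted p under 0.05 it was 2 for S + D at 24 h, 5 for S + D at 72 h, 1 for S + D against Sal at 72 h, and 1 and 2 for the change of the Sal and S + D responses with time. With an added limit of 1.5 on the absolute log2 fold change it was 0 for Das, S + D and S + D against Sal at 24 h, 1 each for Sal, Das and S + D at 72 h, 2 for S + D against Das and 0 against the sum. DESeq2 gave 2 for S + D at 24 h (6258 of 19748 genes called) and 1 for S + D against Sal at 72 h (1112 of 17012). It gave 1 for the change of the Sal response (4435 of 18719). DESeq2 size factors gave 1 for Sal at 72 h, no filter 1 for Sal and 1 for S + D at 72 h, and the compared groups alone 0 for S + D against Sal at 24 h and 1 for Das at 72 h, where ESR2 did not pass the filter. The cause of the other shifts was not tested. The share of all genes called was not computed for the other thresholds, DESeq2 size factors, no filter and the compared groups alone. The counts of receptors at those settings therefore have no background beside them and are no result about the receptors.

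Leaving out 1 library gave 0 to 1 for Das and 1 to 2 for S + D at 24 h, 1 to 2 for Sal, 1 to 3 for Das and 1 to 2 for S + D at 72 h, 3 to 4 for S + D against Das, 0 to 3 against the sum at 72 h, and 0 to 1 for the change of the Sal and of the S + D response. For these fits too, the share of all genes called was not computed.

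Replicate numbers 1 to 3 were not found to pair the samples: among numbered libraries, deviations of same-numbered ones correlated at -0.11 to 0.11 at 24 h and -0.23 to 0.08 at 72 h. The replicate number was also used as a block, in which the unnumbered libraries formed a block of their own. With it, 2 receptors were called for Das at 24 h (4485 of 16357 genes called) and 4 for S + D (8215). For S + D against Das at 24 h it was 1 (3595). At 72 h it was 4 for Sal (10181 of 16682 genes) and 1 for S + D against Sal (1227). It was 1 between the controls (1461 of 17227 genes), and 1 and 3 for the change of the Das and S + D responses (261 and 5013). For ESR2, GPER1, ESRRG and PGR, depth set the limit: a level under 0.0705 to 0.113 CPM could not be told from 0.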
